A study of Caenorhabditis elegans with 4 samples.

Results

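Chromosome V held 12566 of the 60141 peaks in the 3 deposited peak lists for the Hox protein LIN-39, namely 6252 of 30000 in ChIP replicate 1, 6302 of 30000 in ChIP replicate 2, and 12 of 141 in the list deposited for the series as a whole (the series-level list). Members were taken by chromosome name alone. The peaks come from chromatin immunoprecipitation with sequencing (ChIP-seq) of Caenorhabditis elegans hermaphrodites of strain OP18 at the L4 larval stage, raised at 20 °C. Both ChIP libraries and both input libraries share the genotype unc-119(ed3) III with the transgene wgIs18, which supplies unc-119(+) and a lin-39 copy tagged with TY1, EGFP and 3xFLAG. The transgene entered the genome by bombardment, the given genotype lists no lin-39 mutation, and whole worms were used, so a peak carries no information on the cell type in which LIN-39 bound. Antibodies against GFP recovered the bound DNA. The input libraries, chromatin set aside before the antibody, have no peak list here, and the labels do not say whether replicates 1 and 2 were separate cultures.

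LIN-39 is a homeodomain transcription factor of the Hox family, the genes that give body regions their identity. It acts in the middle of the worm's body, where it is needed for the vulval precursor cells to form and adopt vulval fates, for the migration of Q neuroblast descendants and for the identity of ventral cord motor neurons. Chromosome V is an autosome whose outer regions (the arms) recombine more and hold more repeats and fast-evolving families, chemoreceptor genes among them, than its centre, where conserved genes are more frequent. No gene is named for any peak, because the gene table at hand belongs to another genome build than the WormBase WS220 coordinates of the lists.

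The peaks of replicates 1 and 2 together are called candidate peaks here. The number in a peak's name was read as its rank, with 1 the strongest. The score deposited by the authors was read as on a log10 scale, which no label states. On this reading 10 raised to minus the score is a false discovery estimate, in which background calls are set against the peaks down to that rank. This form was worked out from the values: a whole number of background calls, within 0.001, came out for 99.2% of the V peaks below the highest score in replicate 1, 99.5% in replicate 2 and all 11 in the series-level list. Whole numbers alone do not show that the calls counted are background calls, so that name is part of the reading. Under it, an estimate of 1 or more (a score of 0 or below) means that background calls were at least as many as peaks. Scores above 0 were not confined to the top. In replicate 1, 1800 of 6252 V peaks had one, 18 of them within number 1000, against 8417 of 30000 and 120 over the whole list. In replicate 2, 359 of 6302 V peaks had one, 80 of them within number 1000, against 1741 of 30000 and 458 over the whole list. The lists carry no read counts, so depth is unknown, and with 2 libraries of 1 group no test over samples is possible. Differences between V and the other chromosomes are therefore given as descriptions, with 95% exact Clopper-Pearson intervals that cover counting error only.

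Chromosome V had few series-level sites for its many candidate peaks. It held 600.0 candidate peaks per Mb over its 20.9 Mb, within the range of 539 (III) to 697 (X) per Mb on the other 5 chromosomes. Its share of the candidate peaks (20.9%) equalled its share of the summed chromosome spans (20.9%). The series-level list gave V 0.574 peaks per Mb, the lowest value of the 6 chromosomes. The others had 0.851 (II), 1.03 (IV), 2.03 (III), 2.06 (I) and 2.20 (X). The 12 V peaks were 8.51% of the series-level list (interval 4.48 to 14.4), and this interval leaves out the 20.9% of the spans. It holds the 9.22% of II, which rests on 13 peaks, and the 12.8% of IV, which rests on 18. No interval was computed for the rates per Mb, so the order of V, II and IV was not settled. One series-level peak stood for 1046 candidate peaks on V, against 670.2 on II and 265 to 577 on the other 4. Each replicate list holds 30000 peaks, and few of them had a low false discovery estimate. It was below 0.5 for 6 of 6252 V peaks in replicate 1 (51 of 30000 over the list). In replicate 2 it was below 0.5 for 17 of 6302 (156 of 30000).

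The 12 series-level peaks lay at 11 separate places, all between 4507698 and 15432225. The strongest place on V was a pair of overlapping series-level peaks 261 bp apart. V:4507959-4508462 was number 12 of the series-level list, with the highest score of that list (1.61) and no background call, and V:4507698-4508201 was number 26, with a score of 0.86 and 3 background calls. Both overlapped the same replicate peaks. In replicate 1 these were number 10, which shares the top score of that list (1.28) and is centred 3 bp from the first of the pair, and number 40, centred 4 bp from the second. In replicate 2 a single peak, number 11, with the top score of that list (1.84), covered both. This was the only V place with the highest score in all 3 lists.

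Another 4 series-level peaks on V had a score above 0. V:13908482-13908985 (number 40, score 0.33, 18 background calls) ranked 42 in replicate 1 and 98 in replicate 2, close to the top of both. V:15431722-15432225 (number 61, score 0.27) was the site nearest the right end of the chromosome, and it ranked 39 in replicate 1 and 396 in replicate 2. V:11422146-11422649 (number 49, score 0.28) ranked the other way round, with a rank of 369 in replicate 1 and 59 in replicate 2, where its centre was 6 bp away. V:6015573-6016076 (number 74, score 0.11, 57 background calls) ranked 179 in replicate 1 and 485 in replicate 2. Its scores in the replicates themselves were below 0, at -0.04 in replicate 1 and -0.01 in replicate 2.

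The remaining 6 had scores below 0 and background counts of 103 to 195. V:13103781-13104284 (number 99) ranked 472 in replicate 1 and 122 in replicate 2. V:9595098-9595601 (number 102) ranked 174 in replicate 1 and 816 in replicate 2, and its centre lay within 8 bp of a peak centre in both, although its scores were below 0 in all 3 lists. V:15071049-15071552 (number 105) ranked 148 in replicate 1 and 22 in replicate 2, where it had the top score. These 3 positions were found in both replicates within the first 1000 numbers.

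V:10260535-10261038 (number 113) ranked 693 in replicate 1 and 100 in replicate 2. V:11894767-11895270 (number 122) ranked 2384 in replicate 1 and 146 in replicate 2, with its centre 7 bp from the replicate 1 peak and 14 bp from the nearest replicate 2 peak. V:6224232-6224735 (number 130, score -0.18, 195 background calls) was furthest apart, with a rank of 3949 in replicate 1 and 35 in replicate 2, where it shared the top score. The last 2 were the V sites beyond number 1000 in a replicate, in both cases in replicate 1.

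A score of 0 or below was thus carried by 6 of the 12 V peaks (50%, interval 21.1 to 78.9), against 43 of 129 on the other chromosomes (33.3%, 25.3 to 42.2) and 34.8% over the whole list. Within the first 1000 numbers of both replicates were 10 of the 12 (83.3%, 51.6 to 97.9), against 92 of 129 elsewhere (71.3%, 62.7 to 78.9) and 72.3% over the whole list. Each V interval holds the share of the other chromosomes, so neither share set V apart at this number of sites. The peaks are listed as made with a step that keeps peaks by rank agreement between replicates. Ranks near the top of both lists are therefore no independent support for these sites. The V peaks stood at a median number of 176.5 in replicate 1 and 99 in replicate 2, against 203 in replicate 1 and 83 in replicate 2 for the series-level peaks of the other chromosomes. Of the V peaks, 6 ranked closer to the top in replicate 1 and 6 in replicate 2.

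**Figure D1:**
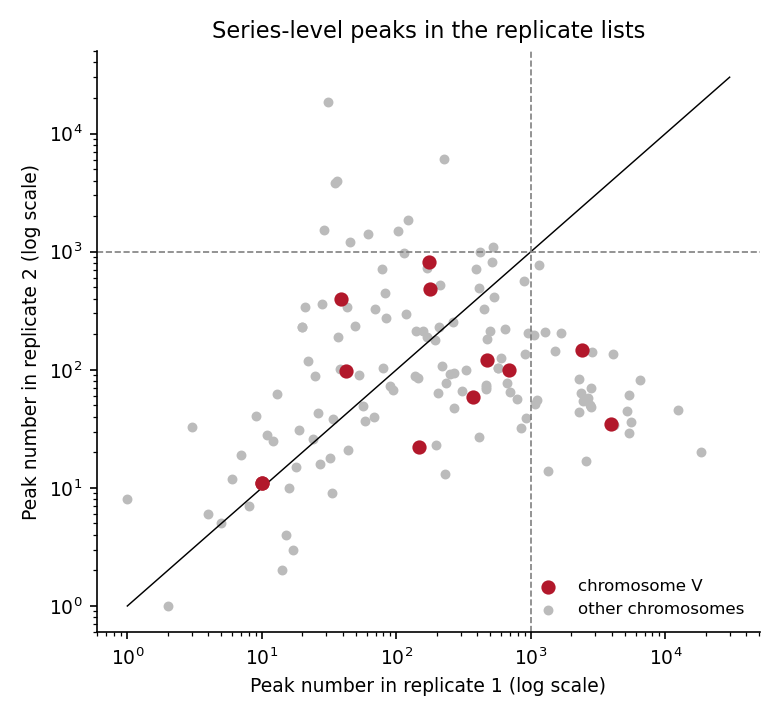
Peak number of each of the 141 series-level peaks in replicate 1 (horizontal, log scale) and replicate 2 (vertical, log scale), with chromosome V in red and the other chromosomes in grey. The solid line marks equal numbers and the dashed lines number 1000. Within number 1000 of both lists lie 10 of the 12 V peaks, a count not independent of the selection of peaks by rank agreement. The point at number 10 of replicate 1 and number 11 of replicate 2 stands for 2 V peaks that share their replicate peaks.

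The first series-level site on V began 4.51 Mb from the left end, and the last ended 5.49 Mb before the highest peak position. The stretches outside these sites, empty of sites by definition, held 2417 candidate peaks on the left and 2817 on the right. Together these were 41.7% of the candidate peaks on V. On I, III, IV and X the corresponding share was between 2.01% and 13.9%, while II, with its first site 5.84 Mb from the left end, had 43.1%. V and II had the fewest sites, 12 and 13. Fewer sites tend to leave longer outer stretches, so these are not a trait apart from the low count on V. The largest distance between neighbouring V sites was 3.37 Mb, from V:6224232-6224735 to V:9595098-9595601, against 1.60 to 4.44 Mb on the other chromosomes.

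Split into 3 equal parts, with borders at 6.97 and 13.9 Mb, V had 4 series-level peaks in the left part, 6 in the central part and 2 in the right part. The central share was 50% (interval 21.1 to 78.9), against 38.8% of the candidate peaks of V (38.1% in replicate 1 and 39.4% in replicate 2). With 12 peaks, an interval this wide holds the candidate share. Among the 6 series-level peaks of V with a score above 0 the central share was 33.3%, below the candidate share. On the other 5 chromosomes the central share of series-level peaks was between 23.1% (X) and 69.2% (II), and that of candidate peaks was between 35.8% (X) and 39.2% (II). The site at V:13908482-13908985 lies in the central part only just, at 66.5% of the span.

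The central part held more of the higher-ranked peaks than of the lower-ranked ones in both replicates, except at the very top of replicate 1. Among V peaks with numbers above 20000 it held 36.3% in replicate 1 and 35.7% in replicate 2. Beyond number 1000 and up to 5000 it held 43.3% (interval 40.0 to 46.7) in replicate 1 and 46.9% (43.5 to 50.4) in replicate 2. Beyond number 500 and up to 1000 it held 45.2% in replicate 1 and 44.1% in replicate 2, and beyond number 100 and up to 500 it held 45.9% (34.3 to 57.9) in replicate 1 and 56.6% (45.3 to 67.5) in replicate 2. Over the first 1000 numbers of both lists, 181 of 389 V peaks were central (46.5%, 41.5 to 51.6), 123 were in the left part (31.6%) and 85 in the right part (21.9%), which held 29.7% of all candidate peaks of V. Other autosomes had a higher central share within number 1000 too, with 57.2% on II (39.2% of all its candidate peaks), 47.8% on III (37.3%) and 48.1% on IV (36.5%), while I had 39.6% (39.0%) and X had 34.1% (35.8%). At numbers 1 to 100 the replicates parted: of the 16 V peaks of replicate 1, 2 were central, 9 were in the left part and 5 in the right part, while of the 8 V peaks of replicate 2, 5 were central, 2 in the left part and 1 in the right part.

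**Figure D2:**
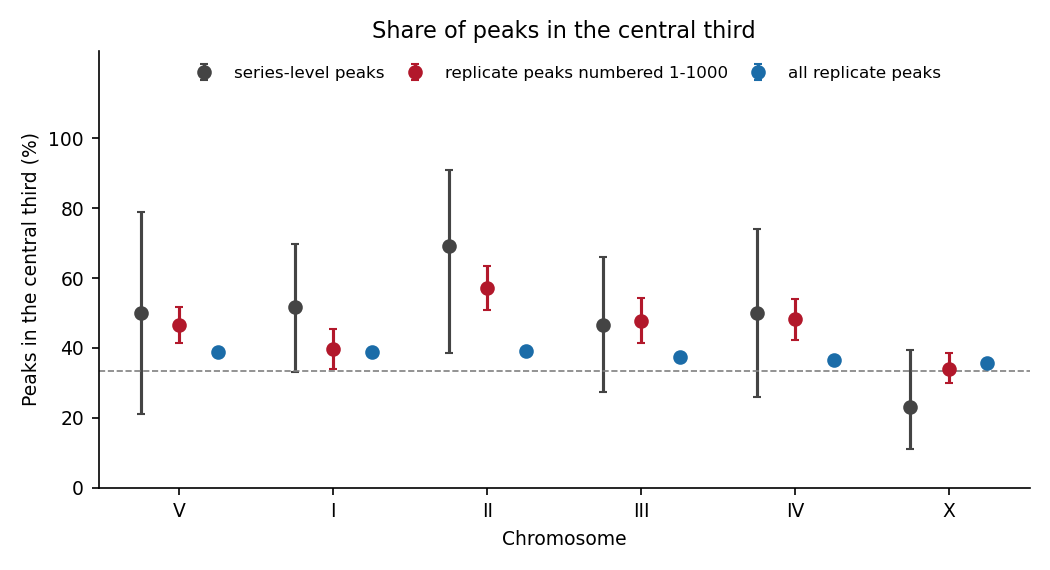
Share of peaks in the central part of each chromosome (3 equal parts) for series-level peaks (black), replicate peaks numbered 1 to 1000 (red) and all replicate peaks (blue), with V first. Bars are 95% exact intervals and the dashed line is an even split; on V the share is 50% with a wide interval for 12 series-level peaks, 46.5% for the first 1000 numbers and 38.8% for all.

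Candidate peaks mostly rose towards the middle of V, and the replicates shared that profile. In 1 Mb bins, counts ran from 233 to 367 peaks in replicate 1 and from 196 to 386 in replicate 2. The bin from 8 to 9 Mb, near the middle, broke the rise with 270 peaks in replicate 1 and 295 in replicate 2. Across the 21 bins, which are stretches of 1 chromosome and not independent, the counts of replicates 1 and 2 had a Pearson correlation of 0.92 and a Spearman correlation of 0.91. For peaks numbered 1 to 1000 these were 0.70 and 0.67. The bin from 13 to 14 Mb stood out there, with 24 peaks of replicate 1 and 19 of replicate 2, its 43 being the most of any bin, and the next highest bin, from 6 to 7 Mb, had 30.

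The sparsest bin was 18 to 19 Mb, with 239 peaks in replicate 1 and 196 in replicate 2. Replicate 2 had no peak within number 1000 there, and its lowest number was 1038, while replicate 1 had 6. The next sparsest, 2 to 3 Mb, had 234 peaks in replicate 1 and 215 in replicate 2. That bin contains V:2345808-2564339, 219 kb without a peak in either replicate. It was the longest candidate-free stretch of V, the next being 90.3 kb, and on the other chromosomes the longest was 29.7 kb (I) to 50.5 kb (III). Outside that stretch the bin held 575 candidate peaks per Mb. Its low count thus came with the empty stretch, while the reason for the empty stretch was not tested.

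Series-level peaks fell in 7 of the 21 bins and were missing from 14. The occupied bins were 4 to 5, 6 to 7, 11 to 12, 13 to 14 and 15 to 16 Mb, with 2 peaks each, and 9 to 10 and 10 to 11 Mb, with 1 each. On the other chromosomes 2 of 18 (X, with 39 series-level peaks) to 8 of 16 (II, with 13) bins were empty. The number of empty bins depends on the number of sites, so it is not a trait apart from the low count of 12 on V. On V the empty bins held a median of 566 candidate peaks (435 to 730), and the occupied bins a median of 704 (567 to 727). For peaks within number 1000, counted over both replicates, the medians were 15 (6 to 26) in empty bins and 24 (15 to 43) in occupied bins. The ranges overlap in both measures, so a bin's candidate count did not fix whether it held a series-level site.

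**Figure D3:**
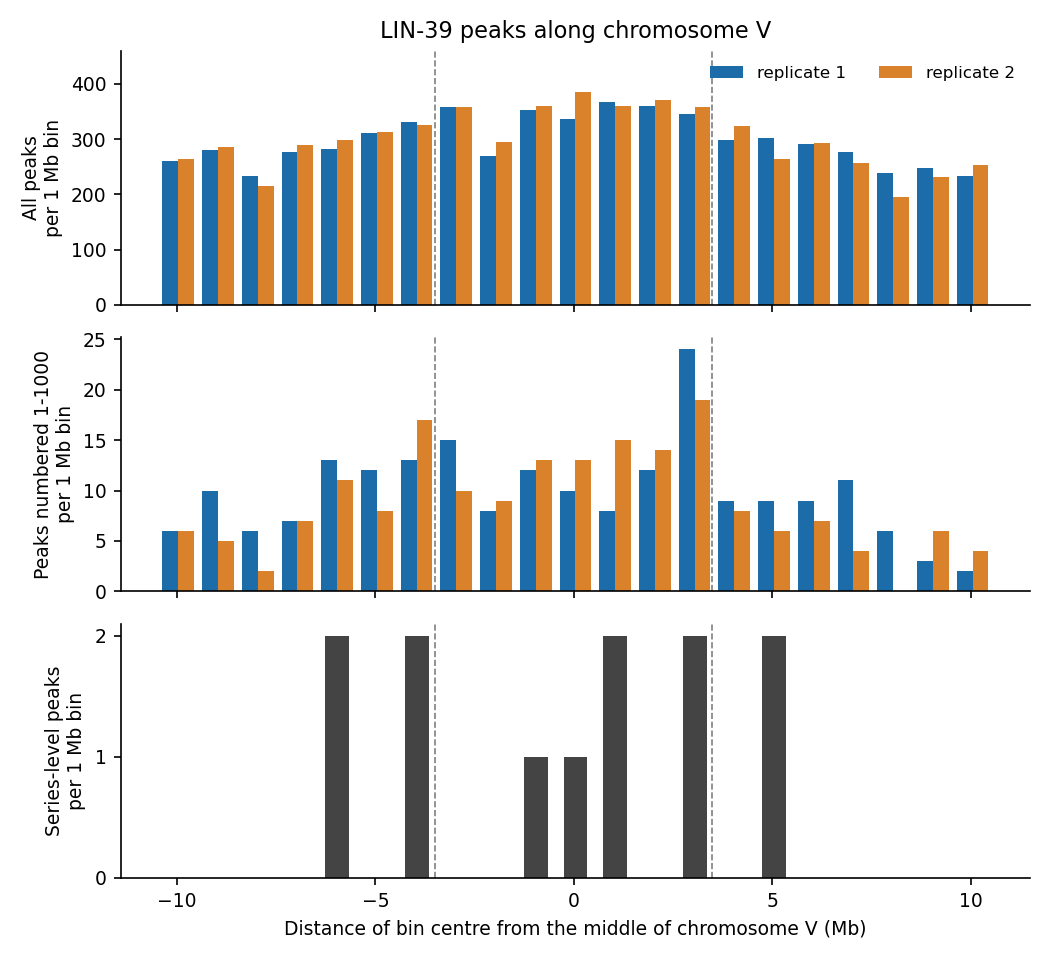
Peaks per 1 Mb bin along chromosome V by distance from its middle (Mb), for all peaks of replicate 1 (blue) and replicate 2 (orange), for those numbered 1 to 1000, and for series-level peaks (black); the last bin is shorter, and dashed lines mark the 3 equal parts. Candidate peaks are present in every bin (435 to 730 over both replicates), whereas the 12 series-level peaks occupy 7 of the 21 bins.

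Several bins rich in candidate peaks held no series-level site. The bin from 12 to 13 Mb had the most candidate peaks of all, 360 in replicate 1 and 370 in replicate 2, of which 12 and 14 were within number 1000. Its best replicate 1 peak, V:12784022-12784517, was number 167 and overlapped number 12309 of replicate 2. Its best replicate 2 peak, V:12036708-12037197, was number 152 and overlapped number 10284 of replicate 1, at a centre distance of 238 bp. Neither of these positions ranked high in both lists. A weaker one did lie within number 1000 of both, V:12192431-12192926, at number 934 of replicate 1 and overlapping number 532 of replicate 2.

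The bin from 7 to 8 Mb, with 358 peaks in replicate 1 and 359 in replicate 2, held further such positions. Its best peak in replicate 1 (number 150, V:7258269-7258764) overlapped no replicate 2 peak. The next, V:7757127-7757622, was number 280 and overlapped number 250 of replicate 2, with their centres 289 bp apart. Its best replicate 2 peak, V:7372171-7372660, was number 170 and overlapped number 808 of replicate 1. Both bins therefore had positions within number 1000 of both lists and no series-level peak. In the bin from 5 to 6 Mb (312 peaks in replicate 1 and 313 in replicate 2), the best replicate 1 peak was number 59 and had no overlap in replicate 2, and the best replicate 2 peak was number 290 and overlapped number 2212 of replicate 1.

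Over V as a whole, the replicates found each other's peaks about as often as elsewhere. Of the V peaks, 45.7% of replicate 1 overlapped a replicate 2 peak by at least 1 bp and 45.5% of replicate 2 overlapped a replicate 1 peak, against 45.2% and 45.1% on the other chromosomes and 45.3% and 45.2% over the whole lists. Candidate peaks covered 23.1% of V, against 21.2% (III) to 26.5% (X) elsewhere. The overlap that peaks this dense would give by position alone was not computed, so these shares have no baseline. Within V the share was 51.1% for the central peaks of replicate 1 (interval 49.1 to 53.1), 43.2% for the left part and 41.4% for the right part. For replicate 2 it was 48.4% (46.4 to 50.4) in the central part, 43.2% in the left part and 43.9% in the right part. Across the 21 bins the share in replicate 1 rose with the number of candidate peaks (Pearson 0.79, Spearman 0.76). The part of density in the central share was not tested. The bin from 13 to 14 Mb again stood highest, at 58.6% in replicate 1 and 58.5% in replicate 2.

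Agreement fell down the list on V as it did elsewhere. For numbers 1 to 1000 of replicate 1 it was 66.3% on V (136 of 205, interval 59.4 to 72.8), against 66.7% on the other chromosomes and 66.6% over the list. Taking the first 1000 by deposited score in place of peak number gave 39.6% on V, so this share rests on reading the number as rank. For replicate 2 it was 65.8% (121 of 184, 58.4 to 72.6), against 67.4% and, over the list, 67.1%. Beyond number 100 and up to 500 the V share was 70.3% in replicate 1 and 72.3% in replicate 2. Beyond number 1000 and up to 5000 it was 56.0% in replicate 1 and 53.5% in replicate 2, and above 20000 it was 40.0% in replicate 1 and 39.6% in replicate 2. In none of the 7 rank ranges did the V interval leave out the share of the other chromosomes, in either replicate. The median distance from a replicate 1 peak on V to the nearest overlapping replicate 2 centre did not follow rank evenly: it was 110.5 bp for numbers 1 to 100, 74.5 bp beyond 100 and up to 500, 92.0 bp beyond 500 and up to 1000, 74.0 bp beyond 1000 and up to 5000, and 121 bp above 20000.

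Among the shares by rank range, the widest separation between V and the other chromosomes was in how the best-ranked peaks of replicate 1 met the series-level list. No test was made of this difference, and the share depends on the number of series-level sites, which was low on V. Among the first 100 numbers, V held 16 peaks in replicate 1 and 8 in replicate 2. Of the 16 in replicate 1, 12 overlapped a replicate 2 peak (75%, interval 47.6 to 92.7), against 85.7% on the other chromosomes and 84% over all 100. Of the same 16, 4 overlapped a series-level peak (25%, 7.27 to 52.4), 2 of them at the pair near 4.51 Mb, against 54 of 84 elsewhere (64.3%, 53.1 to 74.4) and 58% over all 100. On each of the other 5 chromosomes that share was between 44.4% (II) and 83.3% (III). The V interval holds the share of II, which is 4 of 9 peaks. The V share is thus not a trait apart from the low number of series-level sites on V. In replicate 2, 7 of the 8 V peaks overlapped a replicate 1 peak (87.5%, against 94.6% elsewhere and 94% over all 100), and 6 overlapped a series-level peak (75%, 34.9 to 96.8), against 80.4% elsewhere and 80% over all 100.

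**Figure D4:**
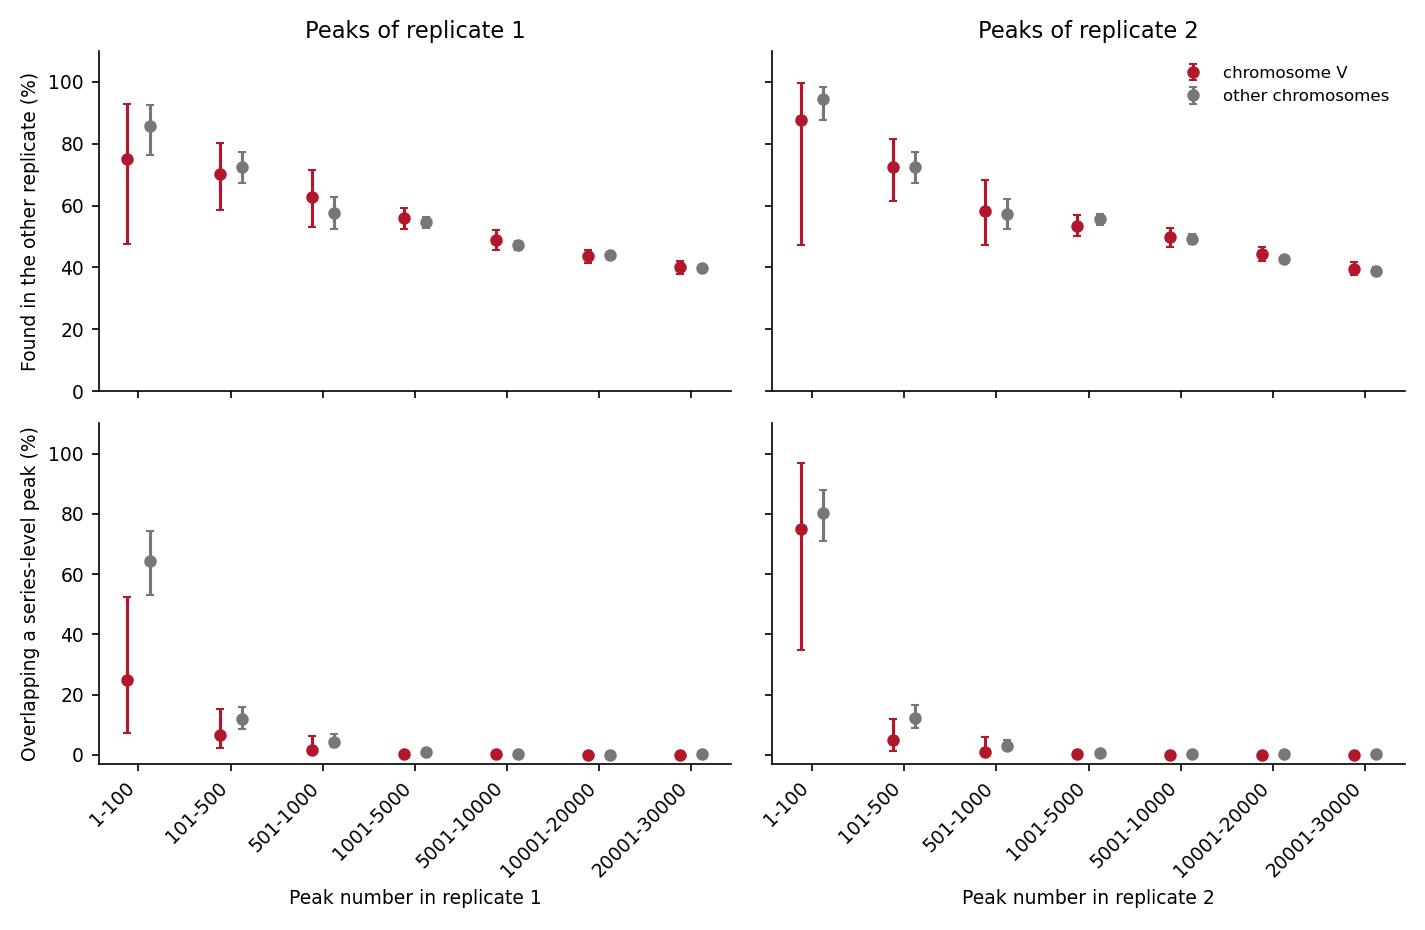
Share of peaks overlapping a peak of the other replicate (top) and share overlapping a series-level peak (bottom) by range of peak number, for replicate 1 (left) and replicate 2 (right), on chromosome V (red) and the other chromosomes (grey), with 95% exact intervals. The top panels run together over all 7 ranges, and the widest separation is in the lower left panel. There 25% of the V peaks numbered 1 to 100 of replicate 1 overlap a series-level peak, against 64.3% on the other chromosomes. The shares in the lower panels depend on the number of series-level sites, which is low on V.

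The best-ranked V peaks of replicate 1 belong to the 16 just counted and add no separate support. Of the 10 V peaks with the lowest numbers in replicate 1 (10 to 73), the same 4 overlapped a series-level peak. These were numbers 10 and 40 at the pair near 4.51 Mb, number 39 at V:15431877-15432372 and number 42 at V:13908419-13908914. The other 6 had no counterpart of high rank. Number 30, V:19973627-19974122, in the right part, had a score of 0.73 (estimate 0.186) and overlapped number 25212 of replicate 2. Number 47, V:1151220-1151715, overlapped number 20809 with the centres 1 bp apart, and number 65, V:3602757-3603252, overlapped number 21079. Number 73, V:18720086-18720581, overlapped number 13771. Numbers 59 (V:5144141-5144636) and 71 (V:16846170-16846665) overlapped none. Of these 10 peaks, 1 was central, 5 were in the left part and 4 in the right part.

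Of the 10 V peaks with the lowest numbers in replicate 2 (11 to 112), 7 were central, against 50.5% of its V peaks within number 1000, and 6 overlapped a series-level peak. Those numbered up to 100 are the 8 already counted and add no separate support. Numbers 11, 22 and 35 shared the top score of the list, at V:4507925-4508414, V:15070934-15071423 and V:6224320-6224809. Numbers 59, 98 and 100, at V:11422147-11422636, V:13908583-13909072 and V:10260534-10261023, had scores of 0.64, 0.41 and 0.41. The remaining 4 had no series-level peak. Number 74, V:13351766-13352255, overlapped no replicate 1 peak and had a score of 0.50. Number 81, V:9546728-9547217, overlapped number 17662, number 105, V:11193918-11194407, overlapped number 7350 with the centres 14 bp apart, and number 112, V:10870346-10870835, overlapped number 6924. The fifth V peak of replicate 2 without a series-level peak, number 130 at V:16276206-16276695, overlapped number 11187.

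Positions within number 1000 of both lists were also counted. Of its 205 replicate 1 peaks, 19 overlapped a replicate 2 peak that was also within number 1000 (9.27%, interval 5.67 to 14.1), against 126 of 795 on the other chromosomes (15.8%, 13.4 to 18.6) and 14.5% over the list. On the 5 other chromosomes the share was between 13.4% (X) and 24.2% (III). The V interval leaves out the share of the other chromosomes together and that of the whole list. It does overlap the interval of the other chromosomes and holds the shares of X and IV, and no test was made. The 19 corresponded to 17 replicate 2 peaks. Of the 19, 11 overlapped a series-level peak (57.9%), against 99 of 126 elsewhere (78.6%). The 8 others, picked out after their values were seen, included V:7757127-7757622 (number 280 in replicate 1 and 250 in replicate 2), V:13088030-13088525 (586 and 436) and V:13695960-13696455 (560 and 385). Another was V:6347917-6348412 (463 and 820), with centres 2 bp apart. Each of these 4 ranked higher in replicate 1 than the series-level sites V:11894767-11895270 and V:6224232-6224735, and lower in replicate 2.

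Overlapping peaks of the same list formed 903 runs on V in replicate 1 and 904 in replicate 2, with a median length of 747 bp in replicate 1 and 731 bp in replicate 2. The best peak of a run was within number 1000 in 89 runs of replicate 1 and 84 of replicate 2, and 6 runs in each replicate held a series-level peak, among them the run of numbers 10 and 40 of replicate 1. In replicate 1, 29.7% of the V peaks overlapped a neighbour of the same list, and in replicate 2, 29.4%, against 26.6% to 32.6% on the other chromosomes in replicate 1 and 26.6% to 30.0% in replicate 2. The longest run of replicate 1, V:17077292-17078666, joined 4 peaks over 1375 bp with a lowest number of 8848, and overlapped number 1002 of replicate 2. Its next, V:6331473-6332733 (1261 bp) and V:18069842-18071065 (1224 bp), joined 3 peaks each. The longest run of replicate 2, V:11367449-11369235, joined 5 peaks over 1787 bp with a lowest number of 5730 and had no overlapping replicate 1 peak. The next were V:9732167-9733689 (1523 bp) and V:20785319-20786718 (1400 bp), with 4 peaks each. None of these 6 runs held a series-level peak.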

How the data were processed

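Peak lists were available for both ChIP replicates and for the series. Per the file headers, coordinates are on WormBase WS220, and per the source column peaks came from SPP followed by the irreproducible discovery rate (IDR), which keeps peaks by rank agreement between replicates. Aligner, versions, thresholds and pooling: not given in the sources used here. Peaks have 1 width per list, 496 bp for replicate 1, 490 bp for replicate 2 and 504 bp for the series. The authors deposited a score for each peak, read here as on a log10 scale. On V the score rose again far down the replicate lists (Spearman correlation with peak number 0.89 in replicate 1, 0.90 in replicate 2), so ranks follow peak numbers.

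Overlaps, bins and shares were computed with Python 3.11.15, pandas 2.3.3 and SciPy 1.17.1, after checking the overlap code on simulated data. A peak belongs to the bin or part that holds its centre. A chromosome's span runs to its highest peak end. A series-level peak's rank in a replicate is the lowest number among the peaks that overlap it. Sites named are all series-level peaks of V, the 10 best V peaks of each replicate, the 5 best outside the series-level list, the 3 longest runs, and bins by candidate count. The members and these lists were chosen with earlier results of these data known. No sequence is shown, since no genome of this build was used here.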

Additional observations from a re-analysis of the deposited data

How the results depend on the processing

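Of 24 alternatives to 6 results, 14 stayed within the counting interval, the spread between replicates or 1.5 times the count, and 10 did not. Splitting V so that its centre is the middle 50% of the span raised the central share to 83.3% for series-level peaks (50% as reported) and to 56.0% for candidate peaks (38.8% as reported), by construction. Candidate peaks within number 1000 gave 46.5%. Series-level peaks with scores above 0 gave 33.3%, below the candidate share. Without replicate 1 or 2 the candidate share was 38.1% to 39.4%. Bins without a series-level site numbered 5 of 11 with 2 Mb bins and 33 of 42 with 0.5 Mb bins, against 14 of 21, which the bin size changes by construction. Requiring centres within 100 bp gave 22.6% of V peaks of replicate 1 found in replicate 2 (45.7% as reported), 36.6% for numbers 1 to 1000 (66.3% as reported) and 6 V sites within number 1000 of both (10 as reported), a stricter rule by construction. An overlap of 50% gave 34.9%. Ordering by score gave 39.6% for the first 1000 of replicate 1, and the cause was not tested. With 1 replicate left out, 10 to 12 V sites were within number 1000. No paired analysis was possible because no result comes from a test and no values for input were used. Depth is unknown, which limits the comparison of ranks between replicates, and 12 series-level peaks limit every share drawn from them.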
